A study of Homo sapiens with 6 samples.

Results

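The DNA replication machinery was followed in PC-3 cells through 52 genes chosen by symbol, out of 64253 genes in the count tables, and all 52 were found and passed the expression filter. The PC-3 line was derived from a human prostate cancer metastasis and is in wide use. The genes were grouped by step: origin licensing (10 genes), the replicative helicase (13), the polymerases (9), the clamp and strand processing (11), nucleotide supply (5) and chromatin behind the fork (4). The repair gene UNG was placed under nucleotide supply. RNA was sequenced from 3 samples of PC-3 cells that carry a lentiviral shRNA against CdGAP (shCdGAP) and from 3 samples that carry a control shRNA (shCon). CdGAP is a GTPase-activating protein for Rac1 and Cdc42 encoded by ARHGAP31. According to the study's methods, PC-3 cells infected with the shRNA against CdGAP were selected with puromycin and grown as single-cell clones; no such cloning is described for the control cells. The 3 shCdGAP samples may therefore stem from 1 clone, and a difference caused by the knockdown cannot be told apart from a difference between that clone and the control population. P-values measure the spread between these samples.

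Replication starts at origins marked by the origin recognition complex (ORC). CDC6 and CDT1 load the MCM ring there during G1, and CDC45 and GINS turn the ring into a moving helicase in S phase. DNA polymerase alpha-primase starts each strand, polymerases epsilon and delta extend the strands on the PCNA clamp, and FEN1 and LIG1 join the lagging-strand pieces. Many of these genes are transcribed as cells enter S phase, under the control of E2F factors, and their transcript levels are widely used as signs of proliferation. In bulk RNA, fewer cells in S phase and less RNA per cell cannot be told apart.

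Depth was 34011175 to 43154039 reads for shCdGAP samples and 33182796 to 42786971 for shCon samples. ARHGAP31 was at 26.4, 27.1 and 26.9 CPM (counts scaled by library size with TMM factors) in shCdGAP replicates 1, 2 and 3, against 58.9, 60.6 and 58.2 CPM in the shCon replicates. Of 4 markers fixed as present in PC-3, the epithelial keratins KRT8 and KRT18 averaged 193 and 270 CPM in shCdGAP against 185 and 253 CPM in shCon samples and did not pass the test, while the epithelial adhesion gene EPCAM averaged 212 against 83.0 CPM (log2 fold change 1.35, adjusted p = 5.02e-08) and vimentin (VIM) 1149 against 628 CPM (0.87, adjusted p = 1.85e-06). KLK3, the prostate-specific antigen gene, which PC-3 cells are known not to express, had no read in any library. Among markers of other cell types, CD3E and HBB had no read in any library, and the most abundant of those listed was PECAM1, at 2.37 to 5.99 CPM in shCdGAP and 5.45 to 5.63 CPM in shCon samples. The library of shCdGAP replicate 2 stood apart: its counts differed from those of replicates 1 and 3 by a chi-square per degree of freedom of 27.2 and 33.3, against 3.22 between replicates 1 and 3 and 2.59 to 6.94 between shCon replicates. It was the lowest of the 3 shCdGAP libraries for 46 of the 52 replication genes, so the results below are given with and without it where that matters.

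As sequence context for the genes that fell most, the 150 bases before the transcription start are shown for 6 of them whose promoter holds an E2F-type motif within that stretch. Promoters come from RefSeq (GRCh38.p14), which had an entry for 46 of the 52 genes, and run from 250 bases before to 50 bases after the start. An E2F-type motif was any of TTTCCCGC, TTTCGCGC, TTTGGCGC or TTTGCCGC on either strand; these words can overlap one another at a palindromic site. Sequences are written 5′ to 3′ on the strand of the gene, with the motif in capitals; GCGGGAAA is the reverse complement of TTTCCCGC.
DTL: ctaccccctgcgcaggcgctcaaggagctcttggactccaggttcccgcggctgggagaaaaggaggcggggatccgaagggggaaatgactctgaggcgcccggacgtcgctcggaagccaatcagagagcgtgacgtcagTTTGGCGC
UHRF1: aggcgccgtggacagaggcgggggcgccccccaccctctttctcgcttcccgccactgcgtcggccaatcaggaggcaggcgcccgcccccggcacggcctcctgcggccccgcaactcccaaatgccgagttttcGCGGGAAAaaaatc
CDCA7: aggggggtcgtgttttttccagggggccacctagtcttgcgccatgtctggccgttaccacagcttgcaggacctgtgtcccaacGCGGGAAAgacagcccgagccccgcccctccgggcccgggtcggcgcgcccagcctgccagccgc
MCM7: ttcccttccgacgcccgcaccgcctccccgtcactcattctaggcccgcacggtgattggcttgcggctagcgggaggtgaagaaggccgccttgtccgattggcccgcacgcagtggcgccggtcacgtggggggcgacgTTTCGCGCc
RFC3: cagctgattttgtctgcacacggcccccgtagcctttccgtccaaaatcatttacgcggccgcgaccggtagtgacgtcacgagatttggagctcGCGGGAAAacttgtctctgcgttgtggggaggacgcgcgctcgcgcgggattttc
GINS2: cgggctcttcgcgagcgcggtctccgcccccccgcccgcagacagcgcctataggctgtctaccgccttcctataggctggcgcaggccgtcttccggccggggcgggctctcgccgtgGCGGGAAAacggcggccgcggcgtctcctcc

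For contrast, the same stretch is shown for MCM10 and RPA1, which also fell but whose promoter window held none of these words.
MCM10: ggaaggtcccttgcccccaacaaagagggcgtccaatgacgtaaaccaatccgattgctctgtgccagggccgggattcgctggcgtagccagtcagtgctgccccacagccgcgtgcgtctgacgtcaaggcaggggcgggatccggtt
RPA1: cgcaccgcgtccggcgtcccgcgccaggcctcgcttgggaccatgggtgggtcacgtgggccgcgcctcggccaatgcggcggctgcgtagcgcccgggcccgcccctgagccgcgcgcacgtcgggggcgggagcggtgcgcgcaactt

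The stretch for DTL is chr1:212035598-212035747, plus strand. The stretch for UHRF1 is chr19:4909351-4909500, plus strand. The stretch for CDCA7 is chr2:173354722-173354871, plus strand. The stretch for MCM7 is chr7:100101398-100101547, minus strand. The stretch for RFC3 is chr13:33817999-33818148, plus strand. The stretch for GINS2 is chr16:85688955-85689104, minus strand. The stretch for MCM10 is chr10:13161408-13161557, plus strand. The stretch for RPA1 is chr17:1829855-1830004, plus strand. Where RefSeq lists several starts (UHRF1 and MCM7), the stretch shown belongs to the start with the motif within those 150 bases. Another UHRF1 start held TTTCGCGC upstream, but outside its last 150 bases. Start sites in the deposited annotation can lie elsewhere. An E2F-type motif stood in at least 1 window of 24 of the 46 genes (52.2%), against 3.99% of the 27305 genes in the whole promoter table. Among the genes that fell, 17 of 31 held it (54.8%), and among those that did not pass the test, 7 of 15 held it (46.7%). Genes with several starts have more windows. By window the shares were 18 of 44 (40.9%) for genes that fell and 7 of 16 (43.8%) for those that did not pass. The CCAAT word was found in 29 of the 46 genes (63.0%) and in 39.7% of all genes, and TTTGAA in 2 of 46 (4.35%) and in 18.2% of all genes, both on either strand. These matches describe letters in the windows and were not tested.

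Most replication genes were lower in shCdGAP than in shCon cells, by moderate amounts. Of the 52 genes, 33 fell at an adjusted p under 0.01 (edgeR's quasi-likelihood test, adjusted over 16439 tested genes), none rose and 19 did not pass; 3 of the 19 were higher at an unadjusted p under 0.05, and DESeq2 called none higher at an adjusted p under 0.01. The same rule called 22.0% of all tested genes lower and 24.1% higher, and among the 7093 tested genes with an average level in the range of these 52, 31.0% lower and 23.9% higher. The median of the 52 genes was -0.34 on the log2 scale, a level of 79.1% of shCon, against 0.01 for all tested genes and -0.04 for genes in the same range of level. No gene passed the study's fold limit of 1 on the log2 scale, under DESeq2 as well; 4.19% of all tested genes fell past it. The log2 fold changes ran from -0.98 (DTL) to 0.17 (RPA3), and 42 of the 52 were below 0.

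The 3 shCdGAP libraries all lay below the 3 shCon libraries for 40 genes, an arrangement seen in 32.7% of all tested genes. They all lay above for GINS4, POLD2 and RPA3, seen in 34.4%. The groups overlapped for the remaining 9 genes. Among the 7093 tested genes in the members' range of level, 2999 had all shCdGAP libraries below and 2276 had all above. The 52 genes together took 0.426%, 0.373% and 0.427% of all reads counted in shCdGAP replicates 1, 2 and 3, and 0.517%, 0.519% and 0.511% in the corresponding controls. Relative to the shCon mean, the median of the 52 genes was -0.23, -0.46 and -0.25 on the log2 scale in shCdGAP replicates 1, 2 and 3. Replicate 2 was thus the furthest from control, and the other replicates lay close to each other.

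**Figure D1:**
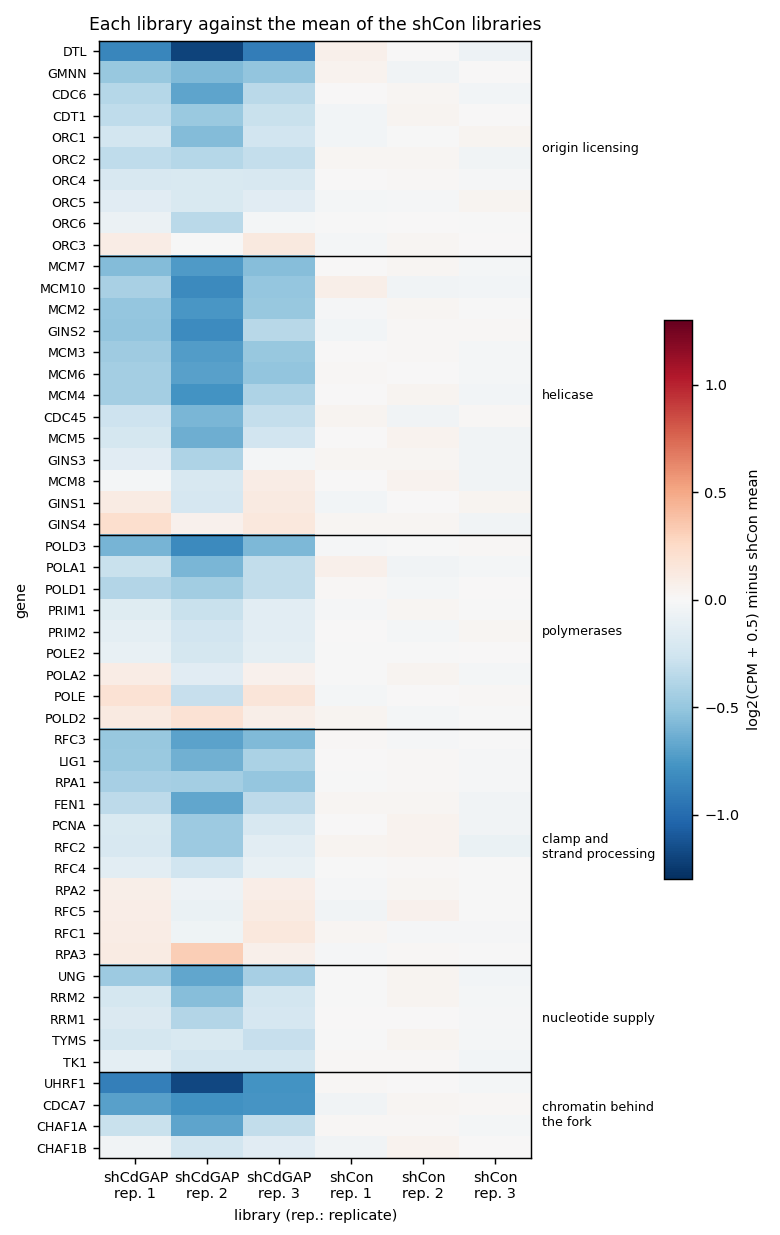
Each cell is the log2(CPM + 0.5) of a replication gene (rows, grouped by step) in a library (columns) minus the mean of the 3 shCon libraries; blue is lower, red higher. The shCdGAP columns are mostly blue, deepest in replicate 2, where the median is -0.46, while the shCon columns stay near 0.

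Without shCdGAP replicate 2, 37 genes fell and 5 rose, the median was -0.26 on the log2 scale and 30.0% of the 16727 genes then tested were called lower and 30.0% higher. The genes added to the lower side were MCM5, PRIM2, RFC2 and RFC4. The 5 that rose were ORC3 (log2 fold change 0.11), GINS4 (0.17), POLD2 (0.08), POLE (0.17) and RFC1 (0.11), all by small amounts. The 33 genes that fell with all libraries also fell without this one, with DTL at -0.89 and UHRF1 at -0.85. Of the genes that passed in neither fit, POLE2 then stood at -0.12, CHAF1B at -0.11, GINS3 at -0.10 and ORC6 at -0.06. The others were MCM8 at 0.02, GINS1 at 0.10, POLA2 at 0.07, RFC5 at 0.09, RPA2 at 0.07 and RPA3 at 0.08.

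**Figure D2:**
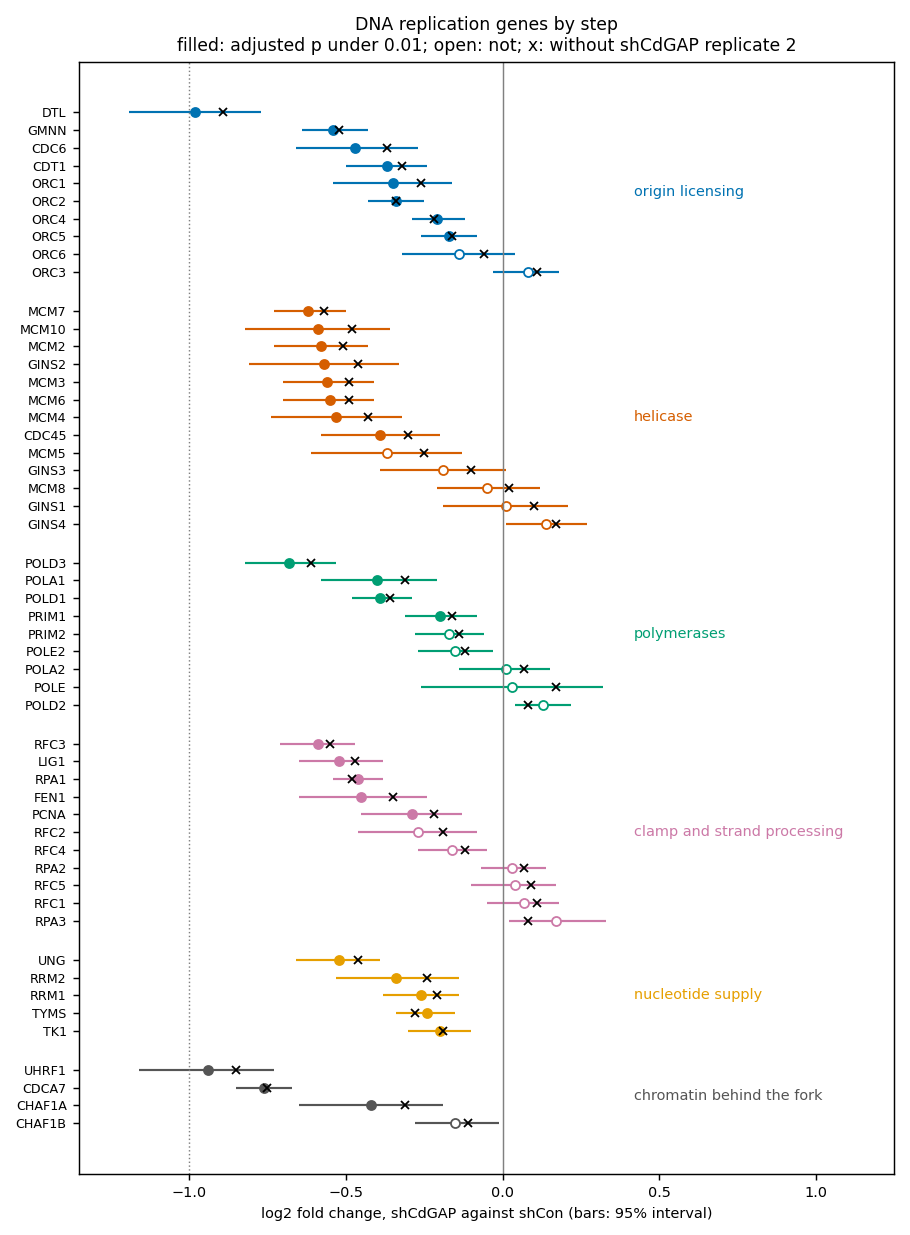
The log2 fold change of each replication gene with its 95% interval, by step; filled points passed an adjusted p under 0.01, open points did not, and crosses are values without shCdGAP replicate 2. The values run from -0.98 for DTL to 0.17 for RPA3, and none of the filled points lies above 0.

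Of the 10 genes grouped under origin licensing, 8 fell (median log2 fold change -0.35). The group includes DTL and GMNN, whose products restrain CDT1 rather than load the MCM ring. The same rule called 22.0% of all tested genes lower, and 31.0% of those in the members' range of level. DTL, the substrate receptor of the CUL4 ubiquitin ligase that destroys CDT1 in S phase (chromosome 1 from 212035553 to 212107400), had 83.0, 64.9 and 80.4 CPM in shCdGAP and 156, 150 and 143 CPM in shCon replicates. Every shCdGAP library was far below every shCon library, and the log2 fold change was -0.98 (SE 0.0887, adjusted p = 3.94e-05), a level of 50.7% of control. GMNN encodes geminin, the inhibitor of CDT1, and had 32.0, 30.2 and 31.5 CPM against 46.7, 43.7 and 45.4 CPM, a log2 fold change of -0.54 (SE 0.0468, adjusted p = 1.54e-05). Its 3 shCdGAP values were close together, replicate 2 included. CDC6, which brings the MCM ring to ORC, had 37.9, 30.4 and 38.5 CPM against 49.3, 49.9 and 48.1 CPM, a log2 fold change of -0.47 (SE 0.0840, adjusted p = 0.00138). For CDC6 replicate 2 was the low library, and without it the value was -0.37.

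CDT1 itself, the loader that both geminin and DTL restrain, fell to 77.5% of control (log2 fold change -0.37, adjusted p = 0.000525). The ORC subunits differed among themselves. ORC1, ORC2, ORC4 and ORC5 fell, with log2 fold changes of -0.35, -0.34, -0.21 and -0.17. ORC6 stood at -0.14 (95% interval -0.32 to 0.04) and ORC3 at 0.08 (-0.03 to 0.18). RPKM divides CPM by the deposited gene length in kilobases. That length can exceed the length of the transcript expressed, so RPKM rankings of genes here and below are approximate. On this scale ORC3 had the highest ORC value in both groups (18.1 ± 0.911 in shCdGAP and 17.2 ± 0.308 in shCon, SD, n = 3). ORC4 had the lowest (4.88 ± 0.0268 and 5.64 ± 0.0498). By mean CPM in shCon cells, ORC4 was above ORC1 (50.3 against 43.4). The calls for ORC1 and ORC5 were lost when any 1 shCon library was left out (adjusted p up to 0.0231 for ORC1 and 0.0229 for ORC5), and that for ORC5 also without shCdGAP replicate 1 (0.0124) or replicate 3 (0.0111) and with library size alone as the scaling (0.0142).

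The helicase genes fell in 8 of 13 cases (median log2 fold change -0.53), against 22.0% of all tested genes and 31.0% of those in the members' range of level. MCM7, a subunit of the MCM2 to MCM7 ring (chromosome 7 from 100092728 to 100101940), had 267, 236 and 269 CPM in shCdGAP and 396, 400 and 387 CPM in shCon replicates. The groups were well apart, with a log2 fold change of -0.62 (SE 0.0520, adjusted p = 1.24e-05). MCM10, which helps start the assembled helicase, had 22.3, 16.8 and 21.1 CPM against 31.8, 29.2 and 29.4 CPM, a log2 fold change of -0.59 (SE 0.0988, adjusted p = 0.000908). MCM2 had 150, 126 and 152 CPM against 211, 217 and 212 CPM, a log2 fold change of -0.58 (SE 0.0669, adjusted p = 9.86e-05). In MCM2 and MCM10 alike, replicate 2 was the lowest and the other shCdGAP replicates were still below every control.

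Of the 6 ring subunits, 5 fell, where 31.0% of tested genes in the members' range of level were called lower. MCM3, MCM6 and MCM4 fell by 0.56, 0.55 and 0.53 on the log2 scale, and MCM5 stood at -0.37 (95% interval -0.61 to -0.13, adjusted p = 0.0164), past the threshold under DESeq2 (0.000566), without shCdGAP replicate 1 (0.00843), and without shCdGAP replicate 2 (1.42e-08), where the value was -0.25. Their levels per length differed 8.22-fold in shCon cells, from 10.9 RPKM for MCM5 to 89.9 for MCM7, and 6.91-fold in shCdGAP cells, in each case with the same subunits at the ends. MCM8, a helicase that acts in recombination rather than in the ring, stood at -0.05 (95% interval -0.21 to 0.12). The number of MCM7 reads per MCM8 read was 5.35, 5.39 and 4.97 in shCdGAP replicates and 7.78, 7.63 and 7.90 in shCon replicates, a ratio that no scaling of the libraries changes. CDC45 fell to 76.3% of control (log2 fold change -0.39, adjusted p = 0.00318); its call was lost without shCon replicate 1 (0.0143) or replicate 3 (0.0135).

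GINS is a tetramer that joins CDC45 and the MCM ring, and the transcripts of its subunits did not move together. GINS2 (chromosome 16 from 85676198 to 85690073) had 23.8, 19.1 and 26.4 CPM in shCdGAP and 33.4, 34.5 and 34.6 CPM in shCon replicates. It fell by 0.57 on the log2 scale (SE 0.104, adjusted p = 0.00163). GINS1 stood at 0.01 (95% interval -0.19 to 0.21), GINS3 at -0.19 (-0.39 to 0.01) and GINS4 at 0.14 (0.01 to 0.27). GINS2 reads per GINS1 read were 0.739, 0.745 and 0.816 in shCdGAP against 1.15, 1.15 and 1.13 in shCon libraries, 67.0% of control, and here replicate 2 lay with the other shCdGAP libraries. In shCon cells GINS2 had the highest RPKM of the GINS genes at 10.5 ± 0.196 (SD, n = 3). In shCdGAP cells GINS1 did, at 7.39 ± 0.941, with GINS2 at 7.08 ± 1.14, a gap within the spread between replicates.

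**Figure D3:**
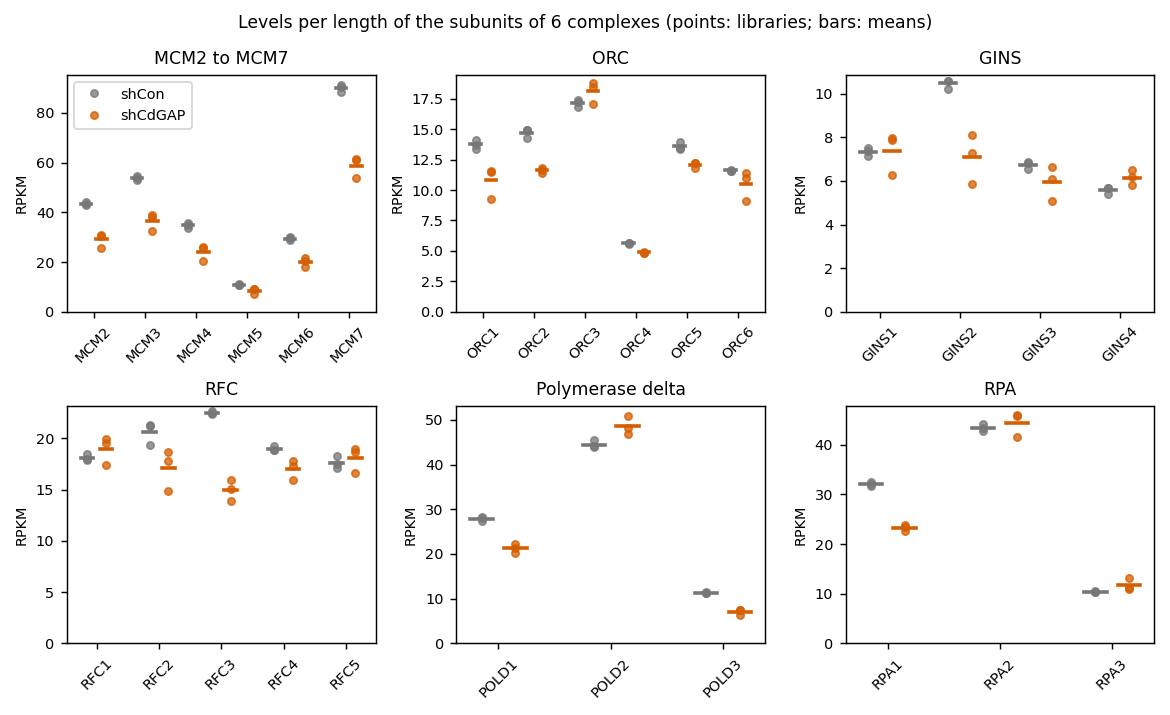
RPKM of the subunits of 6 complexes in each library (points) with the group mean (bars), shCon in grey and shCdGAP in orange; each panel has its own axis from 0. The shCdGAP points lie below the shCon points for each of MCM2 to MCM7, while in GINS, RFC, polymerase delta and RPA a subunit that fell (GINS2, RFC3, POLD3, RPA1) stands beside at least 1 whose points overlap with or lie above control.

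The polymerase genes fell in 4 of 9 cases (median log2 fold change -0.17), where 22.0% of all tested genes were called lower. Among tested genes in the members' range of level the share was 31.0%. POLD3, an accessory subunit of polymerase delta (chromosome 11 from 74493851 to 74669117), had 40.8, 34.9 and 41.6 CPM in shCdGAP and 61.8, 62.3 and 63.1 CPM in shCon replicates. The log2 fold change was -0.68 (SE 0.0647, adjusted p = 2.69e-05), a level of 62.6% of control. POLA1, the catalytic subunit of the primase-bound polymerase alpha, had 74.1, 59.6 and 72.4 CPM against 94.7, 87.7 and 89.0 CPM. It fell by 0.40 (SE 0.0795, adjusted p = 0.00268), a call lost without shCon replicate 1 (adjusted p = 0.0116). POLD1, the catalytic subunit of polymerase delta, had 104, 98.6 and 108 CPM against 137, 133 and 136 CPM, a log2 fold change of -0.39 (SE 0.0419, adjusted p = 5.6e-05). Of the exon bases of POLD1, 8.77% also belong to another gene on the same strand, and reads there are not counted.

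The other polymerase genes stayed closer to control. PRIM1, the primase catalytic subunit, fell to 87.3% of control (adjusted p = 0.00804), a call lost when any shCon library was left out (0.0214 to 0.0294), without shCdGAP replicate 1 (0.0120), with upper-quartile scaling (0.0101) and with library size alone (0.0154). PRIM2 stood at -0.17 (95% interval -0.28 to -0.06) and POLE2 at -0.15 (-0.27 to -0.03). POLA2 stood at 0.01 (-0.14 to 0.15). POLD2, the subunit that bridges POLD1 and POLD3, stood at 0.13 (0.04 to 0.22, adjusted p = 0.0217), with 178, 188 and 173 CPM against 168, 162 and 163 CPM. Every shCdGAP library was thus above every control for POLD2, opposite to POLD1 and POLD3. POLD3 reads per POLD2 read were 0.229, 0.186 and 0.240 in shCdGAP and 0.367, 0.385 and 0.386 in shCon libraries, 57.6% of control. POLE, the catalytic subunit of polymerase epsilon, had 83.5, 59.2 and 81.9 CPM against 72.1, 73.4 and 74.3 CPM. Its replicate 2 lay below and replicates 1 and 3 above every control, which gave a log2 fold change of 0.03 (-0.26 to 0.32), and 0.17 without replicate 2 (adjusted p = 1.41e-05).

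Clamp and strand-processing genes fell in 5 of 11 cases (median log2 fold change -0.27), where 22.0% of all tested genes were called lower. Among tested genes in the members' range of level the share was 31.0%. RFC3, a subunit of the clamp loader (chromosome 13 from 33818049 to 33966558), had 45.8, 39.8 and 43.3 CPM in shCdGAP and 65.3, 64.3 and 64.7 CPM in shCon replicates. It fell by 0.59 (SE 0.0533, adjusted p = 1.84e-05). It is the sole replication gene here on chromosome 13, where the median log2 fold change of the other tested genes was -1.0, and the 8 tested genes within 2 Mb of it had a median of -0.40; the part of the chromosome in its fall was not tested. LIG1, the ligase that seals lagging-strand pieces, had 27.7, 25.0 and 29.1 CPM against 39.0, 39.4 and 38.5 CPM, a log2 fold change of -0.52 (SE 0.0596, adjusted p = 8.53e-05). RPA1, the large subunit of the single-strand binding protein, had 131, 129 and 124 CPM against 176, 178 and 174 CPM, a log2 fold change of -0.46 (SE 0.0351, adjusted p = 6.78e-06). For RPA1, unlike most of these genes, shCdGAP replicate 2 was not the lowest library.

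FEN1, the flap nuclease, fell to 73.4% of control (log2 fold change -0.45, adjusted p = 0.00274), a call lost without shCon replicate 1 (0.0107) or replicate 2 (0.0111). PCNA, the clamp itself, had the highest level per length of the 52 genes, 107 ± 11.0 RPKM in shCdGAP and 130 ± 4.15 in shCon cells (SD, n = 3), and fell to 81.8% of control (adjusted p = 0.00739), a call lost when any shCon library was left out (0.0147 to 0.0268) or with library size alone (0.0108). Among the clamp loader subunits RFC2 and RFC4 stood at -0.27 (95% interval -0.46 to -0.08) and -0.16 (-0.27 to -0.05), and RFC1 and RFC5 at 0.07 (-0.05 to 0.18) and 0.04 (-0.10 to 0.17). RFC3 reads per RFC1 read were 0.350, 0.339 and 0.322 in shCdGAP and 0.526, 0.532 and 0.538 in shCon libraries. RPA2 stood at 0.03 (-0.07 to 0.14) and RPA3 at 0.17 (0.02 to 0.33). For RPA3 shCdGAP replicate 2 was the highest library, at 42.3 CPM against 36.3 and 35.4 CPM in replicates 1 and 3, and without it the value was 0.08. RPA1 reads per RPA2 read were 1.41, 1.55 and 1.33 against 2.03, 1.99 and 2.00, lower in every shCdGAP library than in every shCon library. The ratio concerns transcripts, and the protein trimer was not measured.

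The 7 read ratios between members that were computed, those above with ORC2 to ORC3 (75.1% of control) and POLA1 to POLA2 (75.5% of control), all lay lower in each shCdGAP library than in each shCon library. The pairs were chosen after the values were seen, and with 3 libraries a group the smallest two-sided p of an exact permutation test is 0.1, so the ratios are descriptions.

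All 5 genes grouped under nucleotide supply fell (median log2 fold change -0.26), where 22.0% of all tested genes were called lower. Among tested genes in the members' range of level the share was 31.0%. The 5 genes include UNG, a repair gene that makes no nucleotides. TYMS, RRM1, RRM2 and TK1 stood at -0.24, -0.26, -0.34 and -0.20. UNG, the glycosylase that removes uracil from DNA (chromosome 12 from 109097574 to 109110992), had 149, 129 and 153 CPM in shCdGAP and 206, 213 and 202 CPM in shCon replicates. The log2 fold change was -0.52 (SE 0.0607, adjusted p = 9.34e-05). RRM2, the S-phase subunit of ribonucleotide reductase, had 203, 161 and 201 CPM against 236, 244 and 233 CPM, a log2 fold change of -0.34 (SE 0.0834, adjusted p = 0.00916). Its partner RRM1 had 221, 192 and 216 CPM against 252, 253 and 249 CPM, a log2 fold change of -0.26 (SE 0.0515, adjusted p = 0.00211). The RRM2 call was lost when any shCon library was left out (0.0206 to 0.0295) or with library size alone (0.0126), and the RRM1 call without shCon replicate 1 (0.010) or replicate 2 (0.0101). TYMS, which makes thymidylate, and TK1, which salvages thymidine, fell to 84.4% and 87.0% of control (adjusted p = 0.000669 and 0.00349), the latter not past the threshold without shCon replicate 1 (0.0160) or replicate 2 (0.0153). Per length, UNG had the highest value of the 5, at 80.6 ± 2.10 RPKM in shCon and 56.0 ± 4.91 in shCdGAP cells (SD, n = 3).

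Chromatin genes behind the fork fell in 3 of 4 cases (median log2 fold change -0.59), against 22.0% of all tested genes and 31.0% of those in the members' range of level. UHRF1, which reads hemimethylated DNA and recruits the maintenance methyltransferase (chromosome 19 from 4903080 to 4962154), had 82.4, 66.9 and 88.6 CPM in shCdGAP and 154, 153 and 150 CPM in shCon replicates. It fell to 52% of control, a log2 fold change of -0.94 (SE 0.0928, adjusted p = 7.15e-05). CDCA7, a partner of the remodeller HELLS (chromosome 2 from 173354820 to 173368997), had 54.4, 51.4 and 51.9 CPM against 86.4, 90.5 and 89.9 CPM, a log2 fold change of -0.76 (SE 0.0408, adjusted p = 8.08e-07). Its shCdGAP libraries were nearly level, and the value was -0.75 without replicate 2. CHAF1A, the large subunit of the histone chaperone CAF-1, had 85.0, 64.3 and 83.2 CPM against 105, 105 and 102 CPM, a log2 fold change of -0.42 (SE 0.0982, adjusted p = 0.00693). The CHAF1A call was lost when any shCon library was left out (0.0172 to 0.0219). CHAF1B, another subunit of CAF-1, stood at -0.15 (95% interval -0.28 to -0.01).

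**Figure D4:**
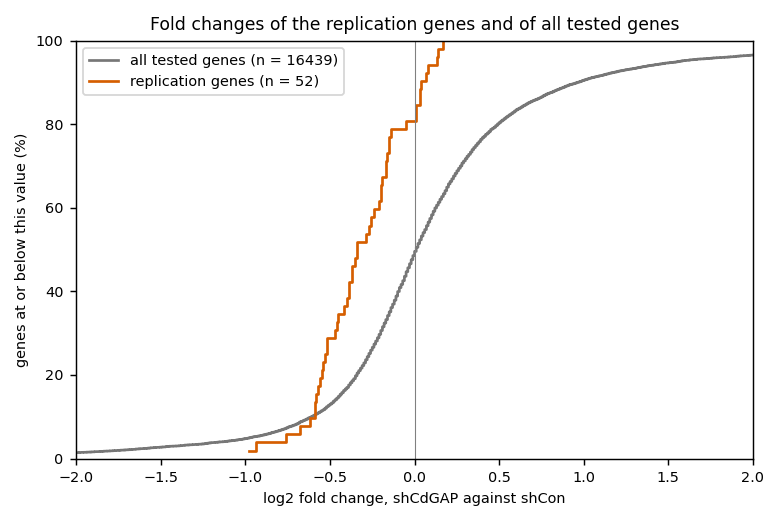
Cumulative share of genes (%) at or below each log2 fold change for the 52 replication genes (orange) and all 16439 tested genes (grey; the axis is limited to values between -2 and 2). The orange curve lies left of the grey one over the middle of the range, with medians of -0.34 and 0.01, but does not reach the far negative values that the grey curve includes.

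In a list of 43 other replication genes, 15 fell, 2 rose and 26 did not pass, and the median was -0.11 on the log2 scale. The share called lower was 22.0% of all tested genes and 31.0% of those in the members' range of level, and 24.1% of all tested genes were called higher. The largest falls belonged to CUL4A, the ligase scaffold that works with DTL, at 46.7, 46.8 and 45.3 CPM in shCdGAP against 142, 149 and 145 CPM in shCon replicates (log2 fold change -1.65, SE 0.0376, adjusted p = 1.28e-08). RNASEH2B, a subunit of the nuclease that removes ribonucleotides, had 8.98, 8.43 and 10.3 CPM against 23.6, 24.0 and 23.6 CPM (log2 fold change -1.37, SE 0.0772, adjusted p = 1.1e-06). CUL4A and RNASEH2B lie on chromosome 13, like RFC3. MCM9, the partner of MCM8, had 6.63, 5.67 and 6.60 CPM against 11.8, 12.4 and 13.5 CPM (log2 fold change -0.99, SE 0.0926, adjusted p = 2.25e-05). The related scaffold CUL4B and the adaptor DDB1 stood at 0.02 and -0.07 and did not pass; without shCdGAP replicate 2 they stood at -0.03 and -0.08, and DDB1 was called lower (adjusted p = 0.00654).

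The 2 genes of that list that rose were POLD4, the small subunit of polymerase delta, and RRM2B, the stress-related subunit of ribonucleotide reductase. POLD4 had 9.05, 11.1 and 9.51 CPM in shCdGAP against 5.70, 4.60 and 5.93 CPM in shCon replicates (log2 fold change 0.88, SE 0.123, adjusted p = 0.000282). RRM2B had 61.9, 62.5 and 60.2 CPM against 50, 50.9 and 47.6 CPM (log2 fold change 0.31, SE 0.0417, adjusted p = 0.000202). Within polymerase delta, POLD1 and POLD3 therefore fell, POLD4 rose and POLD2 did not pass, and within ribonucleotide reductase RRM1 and RRM2 fell while RRM2B rose. Without shCdGAP replicate 2, 20 of the 43 genes fell and 7 rose, where 30.0% of all genes then tested were lower and 30.0% higher. The genes HELLS and DNMT1, which work with CDCA7 and UHRF1, stood at -0.42 (adjusted p = 0.0375) and -0.09 (adjusted p = 0.466). Without shCdGAP replicate 2, HELLS stood at -0.27 and was called lower (adjusted p = 2.45e-07), and DNMT1 stood at 0.02.

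Among 18 regulators of S-phase entry, 8 fell and 2 rose, where 22.0% of all tested genes were called lower and 24.1% higher. In the members' range of level these shares were 31.0% and 23.9%. The median of the 18 regulators was -0.23 on the log2 scale, and -0.15 without shCdGAP replicate 2. E2F1, an activator of replication genes, stood at -0.16 (adjusted p = 0.245; -0.04 without shCdGAP replicate 2), while E2F2, E2F3 and E2F4 fell by 0.42, 0.41 and 0.27 on the log2 scale. The 2 that rose were E2F7 (0.38, adjusted p = 0.0065) and E2F8 (0.69, adjusted p = 2.84e-05), which are known as repressors of E2F targets. TFDP1, the dimerization partner of the E2F factors, had 62.4, 60.5 and 65.4 CPM against 217, 217 and 210 CPM, and the E2F inhibitor RB1 27.0, 26.3 and 25.6 CPM against 80.6, 82.3 and 76.2 CPM. TFDP1 and RB1 lie on chromosome 13. CCNE2 and CDC25A, which drive CDK2 activity, fell by 1.01 and 0.58, and CDK2 fell by 0.27.

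Of 65 replication-dependent histone genes, whose transcripts mostly end without a poly(A) tail, 22 passed the expression filter, of which 5 fell and none rose, where 22.0% of all tested genes were called lower, a share close to that of the list (median of the 22 on the log2 scale -0.58). The 5 were H2BC12 (-1.45), H2BC21 (-1.24), H2AC6 (-1.10), H2BC5 (-0.96) and H1-2 (-0.58). Copies of histone genes are nearly identical, so reads that map to several copies are not counted and these values are uncertain. SLBP, which binds the stem-loop of histone transcripts, fell to 71.1% of control (adjusted p = 4.05e-06).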

How the data were processed

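Total RNA was extracted from 3 shCdGAP and 3 shCon samples of PC-3 cells, and libraries were made with an Illumina TruSeq RNA kit. The study's methods do not state whether poly(A) RNA was selected. The authors deposited raw read counts per Ensembl gene, 1 table per sample. Per the study's methods and the submitters' processing notes, read quality was checked with FastQC 0.11.5, reads were aligned to GRCh38 with STAR 2.5.1b and counted with featureCounts 1.4.6. The file headers instead give featureCounts 1.6.0, run on Ensembl release 77 in a paired and stranded mode, whereas the methods name a single-read kit. Reads with several alignments or in exons shared by genes of 1 strand are not counted under these settings. Symbols matched 56105 of 64253 gene identifiers (87.3%).

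The quasi-likelihood F test of edgeR 4.0.16 in R 4.3.3 was the main test, after filterByExpr and TMM scaling, with robust dispersions, group as the sole term and Benjamini-Hochberg adjustment over 16439 genes. limma 3.58.1 and DESeq2 1.42.0 served as alternatives. TMM factors lay between 0.987 and 1.01. Standard errors are the size of the log2 fold change over the square root of F. Calls used an adjusted p under 0.01, and the fold limit is an absolute log2 fold change above 1, both as in the study. CPM are TMM-scaled, and RPKM divide them by the deposited gene length. Deviations per library used log2(CPM + 0.5). The fits were tested on simulated data.

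The members and gene lists were chosen with earlier results of these data known. Some marker genes are not reported here. Values per library are given for the 3 passing genes of each step with the largest absolute change. They are also given for any gene past the fold limit or against the common direction. The same holds for the 3 largest passing changes each way among the other replication genes. Further per-library values (GINS2, POLD2, POLE, RPA3, TFDP1, RB1) and the read ratios were chosen after their values were seen. Promoter words were searched with Python 3.11.15. Alternatives were DESeq2, limma-voom, other scalings, filters and thresholds, a fit without chromosomes 9 and 13, a block on the replicate number, and the omission of each library in turn. For the other replication genes these alternatives were added after seeing the data.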

Additional observations from a re-analysis of the deposited data

How the results depend on the processing

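The count of lower replication genes stayed between 22 and 38 of 52 under every alternative (22 to 37 with 1 library left out), and the median between -0.38 and -0.26. Of the 33 lower genes, 22 passed in the same direction under all 14 alternatives run for single genes. None higher became 1 at an adjusted p under 0.05, 1 with library size alone (POLD2) and 1 with no filter (RPA3), and 0 to 5 with 1 library left out, the 5 without shCdGAP replicate 2. None past the fold limit became 0 to 2 with 1 library left out: DTL without shCdGAP replicate 1 (-1.06) or shCon replicate 3 (-1.02), and DTL (-1.03) and UHRF1 (-1.04) without shCdGAP replicate 3. Among the other replication genes, 2 higher became 4 at an adjusted p under 0.05 and 2 to 7 with 1 library left out, the 7 without shCdGAP replicate 2. The cause was not tested.

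Signs changed for 6 genes near 0 that did not pass. GINS1 was at -0.00 with DESeq2, -0.01 without chromosomes 9 and 13, -0.00 with limma-voom and -0.06 to 0.10 with 1 library left out. POLA2 was at -0.00, -0.01 and -0.00 under the same settings and at -0.05 to 0.07 with 1 library left out. With 1 library left out, POLE ran from -0.07 to 0.17, RPA2 from -0.00 to 0.07, RFC5 from -0.01 to 0.09 and MCM8 from -0.13 to 0.02.

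Same-numbered samples correlated at 0.05, 0.07 and 0.07 in their deviations from the group means, so the numbers were not taken to pair them. With the replicate number as a block, 29 genes were lower and 0 higher. The calls lost were ORC5 (adjusted p = 0.0141), PCNA (0.0101), PRIM1 (0.0148) and RRM2 (0.0102), also lost with library size alone. The number of all tested genes lower was then 3421 and of all tested genes higher 3808; the block moved no count by over 1.5 times. Counting error and 3 samples per group limit changes under about the width of the intervals given.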
